A study of Mus musculus with 14 samples.

Results

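The vascular endothelial growth factor (VEGF), neuropilin and Tie receptor genes were followed through the steps by which blood cells arise in the mouse embryonic aorta. The group holds 10 genes, found by their symbols among the 19322 genes listed for E10 single cells, the 19424 for E11 single cells and the 19425 for whole intra-aortic haematopoietic clusters (wIAHCs). They are the VEGF receptors *Kdr* (VEGFR2), *Flt1* (VEGFR1) and *Flt4* (VEGFR3), the neuropilins *Nrp1* and *Nrp2*, the semaphorin receptor *Plxnd1*, the ligand *Vegfa*, the Tie receptors *Tie1* and *Tek* (Tie2), and *Vwf*, which encodes von Willebrand factor. All 10 were listed at both stages and in wIAHCs.

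VEGF-A acts through the receptor tyrosine kinase encoded by *Kdr*, which drives survival, proliferation and migration of endothelial cells, while the product of *Flt1* binds the same ligand strongly, signals weakly and serves largely as a trap. Neuropilins are co-receptors that bind VEGFs and class 3 semaphorins and have little catalytic activity of their own, and Plexin D1 passes semaphorin signals on. Tie2 binds angiopoietins and steadies the vessel wall, Tie1 is its orphan partner, and von Willebrand factor is a clotting protein that endothelial cells store in Weibel-Palade bodies. In the aorta-gonad-mesonephros region (AGM), haemogenic endothelium of the dorsal aorta turns into haematopoietic cells (endothelial-to-haematopoietic transition, EHT), which gather in intra-aortic haematopoietic clusters (IAHCs).

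Single cells and wIAHCs were sequenced with CEL-Seq, which counts 3′ ends of transcripts with unique molecular identifiers, so that levels of different genes can be compared without a correction for gene length. Non-HE (Cdh5+ Gfi1- Gfi1b- c-kit-), HE (Cdh5+ Gfi1+ Gfi1b- c-kit-) and EHT cells (Cdh5+ Gfi1+ Gfi1b- c-kit+) came from ICR embryos of WT females mated to males of genotype Gfi+/tomato/ Gfi1b+/GFP. The genotype given is that of the males, whose embryos can carry a reporter in 1 copy of each of these 2 genes. IAHC cells (c-kit+ CD31+, and at E11 also c-kit+), pre-HSCs (c-kit+ Cdh5+, type I without and type II with CD45), yolk sac (YS) HSPCs (c-kit+) and wIAHCs (c-kit+ clusters picked from the ventral or dorsal wall) came from C57BL/6 WT embryos. E10 embryos had 28 to 32 somite pairs and E11 embryos more than 40. Strain and reporter alleles therefore cannot be told apart from the step between EHT cells and IAHC cells or pre-HSCs.

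At E10 there were 43 non-HE, 98 HE, 191 EHT and 73 IAHC cells and 141 YS HSPCs, each reduced by the authors to 3000 transcripts. At E11 there were 30 non-HE, 46 HE and 46 EHT cells, 62 type I and 55 type II pre-HSCs, 201 c-kit+CD31+ and 89 c-kit+ IAHC cells and 46 YS HSPCs, each at 5000 transcripts. The labels put the non-HE cells of the earlier table at E10 and their column names at early E11, and the labels were followed. Each population is 1 sample in the labels (both types of pre-HSC share 1), so no test was made between populations. Means per cell have exact 95% Poisson intervals in parentheses and shares of cells have exact Clopper-Pearson intervals, and both cover counting error only. The 30 sorted sets that make up the populations differed by more than that, and their lowest and highest means are given where they bear on a comparison. E10 IAHC cells and E11 HE cells, EHT cells and YS HSPCs were 1 sorted set each, so set and population cannot be told apart for them. The populations carried the endothelial and haematopoietic markers of their names, with summed means of 10 endothelial markers from 1.13 (YS HSPCs) to 35.1 (non-HE) transcripts per cell at E10 and from 3.33 (YS HSPCs) to 49 (HE) at E11, and of 8 haematopoietic markers from 0.19 (non-HE) to 6.99 (IAHC) at E10 and from 0.30 (non-HE) to 10.3 (type II pre-HSCs) at E11. Of the deposited cells, all 363 IAHC cells and all 117 pre-HSCs held a *Gpr56* transcript, the gene on which the study selected IAHC cells, against 174 of 191 E10 and 43 of 46 E11 EHT cells, so IAHC cells without it are not in these comparisons. Markers of macrophages, with at least 4 of 8 present, marked 2 cells in all, 1 E10 HE and 1 E11 EHT cell.

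In the annotation of GRCm38, all 10 genes are protein-coding. *Kdr* (ENSMUSG00000062960.10) spans chr5:75932827-75978458 on the minus strand, and *Flt1* (ENSMUSG00000029648.13) lies on the same chromosome and strand at chr5:147561604-147726011. *Nrp1* (ENSMUSG00000025810.9) spans chr8:128358604-128503363 on the plus strand and *Nrp2* (ENSMUSG00000025969.15) chr1:62703285-62818695 on the plus strand. *Tie1* (ENSMUSG00000033191.14, chr4:118471191-118490061, minus) and *Tek* (ENSMUSG00000006386.15, chr4:94739289-94874976, plus) share a chromosome, as do *Plxnd1* (ENSMUSG00000030123.15, chr6:115954811-115995005, minus) and *Vwf* (ENSMUSG00000001930.17, chr6:125546774-125686679, plus). *Flt4* (ENSMUSG00000020357.3) lies at chr11:49609263-49652739 on the plus strand and *Vegfa* (ENSMUSG00000023951.17) at chr17:46016993-46032369 on the minus strand.

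For context, the 250 bases before the start are shown for 2 VEGF receptors, *Plxnd1* and *Tek*. Their windows lie before the annotated gene, except that the last 3 bases of the *Kdr* window overlap it. They are given 5′ to 3′ on the strand of the gene, from RefSeq on GRCm38.p6, with GGAA, the core letters of sites for ETS factors, in capitals on either strand (TTCC on the other one). The windows are chr5:75978456-75978705 for *Kdr*, chr5:147726012-147726261 for *Flt1*, chr6:115995006-115995255 for *Plxnd1* and chr4:94739039-94739288 for *Tek*.
Kdr: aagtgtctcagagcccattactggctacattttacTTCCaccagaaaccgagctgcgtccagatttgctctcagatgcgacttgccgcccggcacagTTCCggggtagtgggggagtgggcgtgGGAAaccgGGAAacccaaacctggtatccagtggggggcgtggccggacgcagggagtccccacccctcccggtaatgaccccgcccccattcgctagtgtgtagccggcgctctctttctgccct
Flt1: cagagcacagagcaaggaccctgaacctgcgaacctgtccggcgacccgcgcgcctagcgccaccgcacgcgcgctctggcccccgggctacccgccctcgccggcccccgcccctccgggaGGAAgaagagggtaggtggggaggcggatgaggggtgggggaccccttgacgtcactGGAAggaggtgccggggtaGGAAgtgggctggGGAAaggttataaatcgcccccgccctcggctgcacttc
Plxnd1: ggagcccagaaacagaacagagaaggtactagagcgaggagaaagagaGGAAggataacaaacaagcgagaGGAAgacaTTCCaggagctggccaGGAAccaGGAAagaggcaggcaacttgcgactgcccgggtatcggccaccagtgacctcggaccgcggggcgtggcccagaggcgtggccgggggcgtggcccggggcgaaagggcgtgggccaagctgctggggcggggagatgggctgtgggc
Tek: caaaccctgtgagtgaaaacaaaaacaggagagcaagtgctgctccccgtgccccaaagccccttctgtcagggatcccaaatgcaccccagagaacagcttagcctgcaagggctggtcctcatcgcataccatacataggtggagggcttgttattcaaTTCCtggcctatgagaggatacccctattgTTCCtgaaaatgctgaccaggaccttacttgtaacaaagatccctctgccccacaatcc

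*Kdr* and *Flt1* each had 4 matches to GGAA or TTCC, *Plxnd1* had 5 and *Tek* had 2. Of the other members with a promoter in the table, *Tie1* had 7, *Nrp1* 4, *Flt4* 2, *Nrp2* 1 and *Vegfa* 6 and 2 at its 2 starts. Among all 32851 promoters of the same length, 93.4% held at least 1 match and 33.4% held 4 or more, with a median of 3. The motifs GATA, ACAAT and ACGTG were searched as well, on both strands. GATA was found for *Kdr*, *Plxnd1*, *Tek* and 1 *Vegfa* start, and in 53.6% of all promoters. ACAAT was found for *Tek* alone (27.7% of all promoters) and ACGTG for 1 *Vegfa* start (16.6%). A match is a description of letters, and 9 of the 10 members were in the table.

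**Figure D1:**
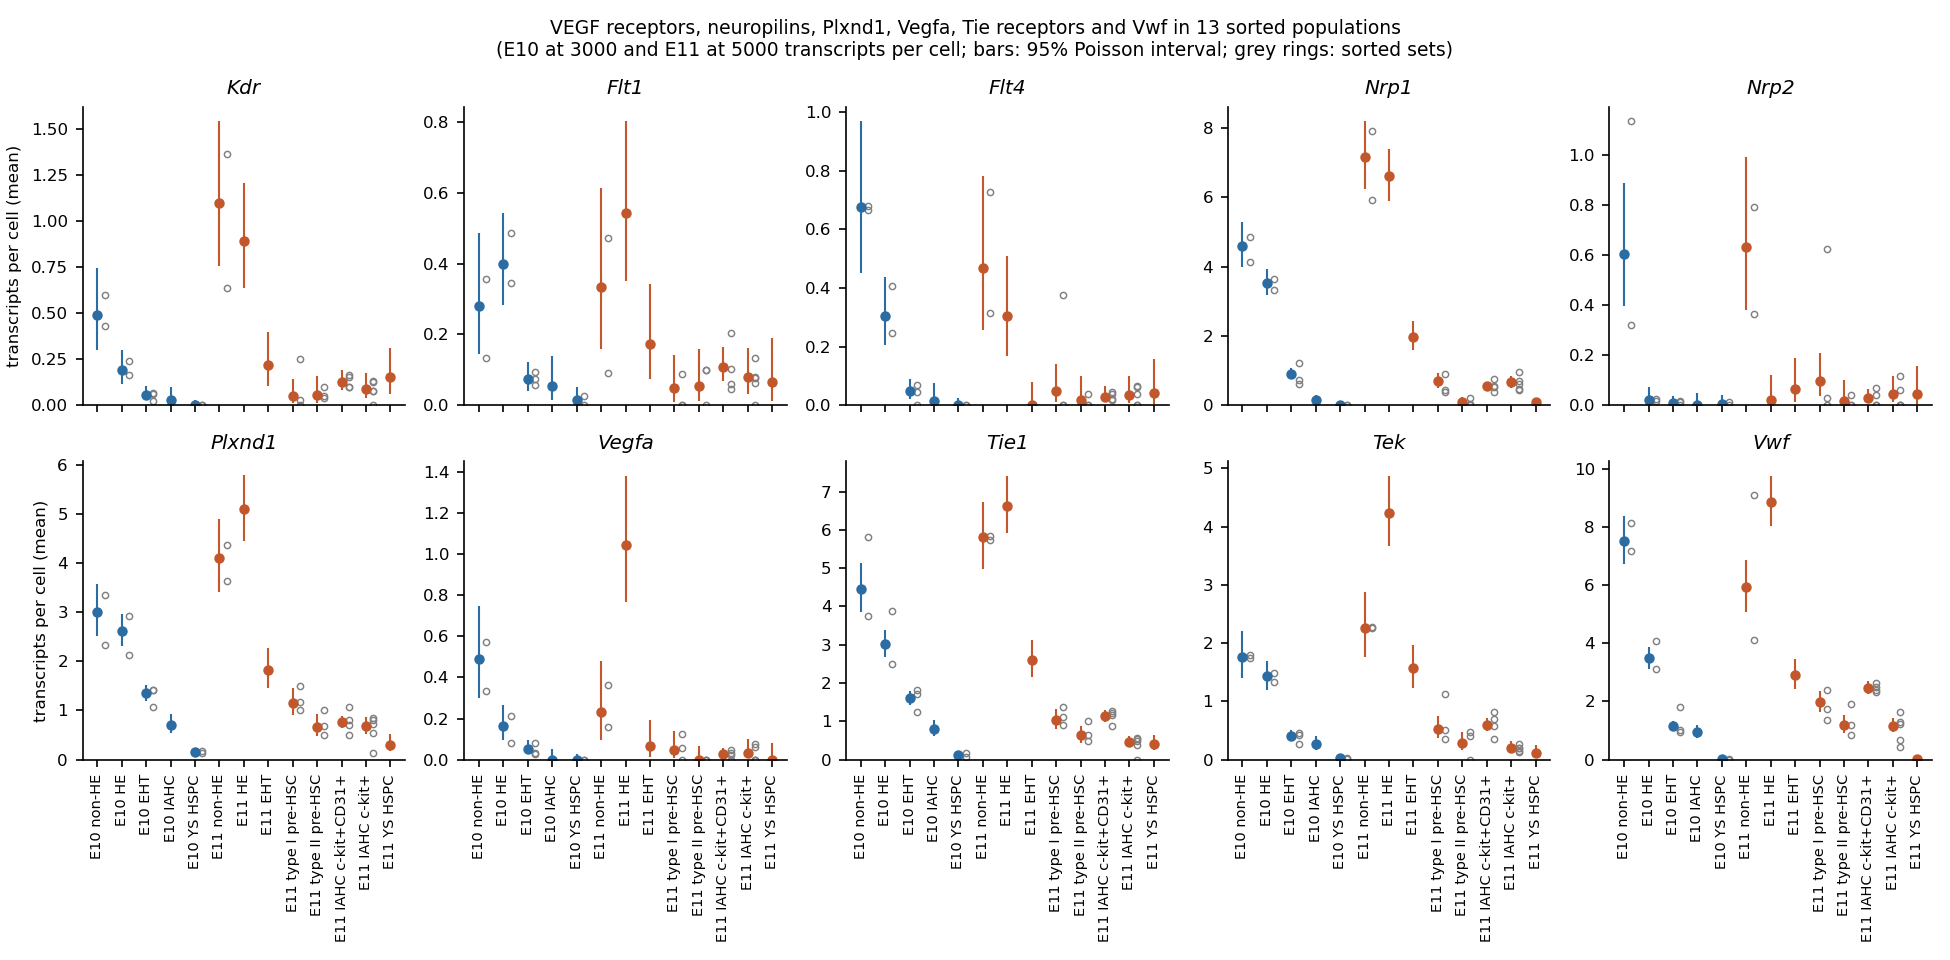
Mean transcripts per cell (vertical axis) of the 10 genes in the 13 sorted populations, E10 in blue at 3000 and E11 in orange at 5000 transcripts per cell. Bars are 95% Poisson intervals and grey rings the means of separate sorted sets, shown where a population has more than 1. The 5 abundant genes, *Nrp1*, *Plxnd1*, *Tie1*, *Tek* and *Vwf*, stood highest in non-HE or HE cells and lowest in YS HSPCs at both stages.

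*Nrp1*, the co-receptor for VEGF-A and class 3 semaphorins, was among the most abundant of the group in endothelial cells and, of the 5 abundant members, the one that differed most between HE and IAHC cells at E10. At E10, *Nrp1* averaged 4.60 (3.99 to 5.29) transcripts per cell in non-HE, 3.53 (3.17 to 3.92) in HE, 0.916 (0.786 to 1.06) in EHT and 0.164 (0.0849 to 0.287) in IAHC cells, beside 0.00709 (0.00018 to 0.0395) in YS HSPCs. At E11 the mean *Nrp1* level was 7.17 (6.24 to 8.19) in non-HE, 6.61 (5.89 to 7.39) in HE and 1.98 (1.59 to 2.43) in EHT cells. The level of *Nrp1* was 0.694 (0.502 to 0.934) in type I and 0.109 (0.0400 to 0.237) in type II pre-HSCs. It stood at 0.562 (0.463 to 0.676) in c-kit+CD31+ and 0.663 (0.505 to 0.855) in c-kit+ IAHC cells, beside 0.0870 (0.0237 to 0.223) in YS HSPCs. Non-HE and HE cells did not differ beyond their intervals at E11, and the 3 sorted sets of E10 EHT cells (0.60 to 1.2) lay below both sets of E10 HE cells (3.32 and 3.66). A transcript of *Nrp1* was found in 91.8% of E10 HE cells, 37.7% of EHT cells, 8 of 73 IAHC cells and 0.709% of YS HSPCs, all at the same depth.

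*Plxnd1*, which encodes the semaphorin receptor, differed less along the same path. Its mean at E10 was 3.0 (2.50 to 3.56) transcripts per cell in non-HE, 2.62 (2.31 to 2.96) in HE, 1.3 (1.19 to 1.5) in EHT and 0.712 (0.532 to 0.934) in IAHC cells, beside 0.149 (0.0922 to 0.228) in YS HSPCs. For E11 the *Plxnd1* means were 4.10 (3.41 to 4.89) in non-HE, 5.09 (4.46 to 5.78) in HE, 1.83 (1.46 to 2.26) in EHT cells, 1.16 (0.909 to 1.46) in type I and 0.673 (0.474 to 0.927) in type II pre-HSCs, with 0.761 (0.645 to 0.892) in c-kit+CD31+ and 0.674 (0.514 to 0.868) in c-kit+ IAHC cells, beside 0.304 (0.166 to 0.511) in YS HSPCs. All 43 E10 non-HE cells and all 30 E11 non-HE cells had a *Plxnd1* transcript, and so did 11.3% of E10 YS HSPCs. The last share is the level seen in cells outside the aorta, and the 46.6% of E10 IAHC cells with *Plxnd1* stood above it.

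*Tie1*, the orphan receptor of the Tie family, was the member found in the largest share of E10 IAHC cells. *Tie1* averaged 4.5 (3.86 to 5.14) transcripts per cell in E10 non-HE, 3.02 (2.69 to 3.38) in HE, 1.6 (1.43 to 1.79) in EHT and 0.795 (0.603 to 1.03) in IAHC cells, beside 0.121 (0.0702 to 0.193) in YS HSPCs. The E11 means of *Tie1* were 5.80 (4.97 to 6.73) in non-HE, 6.63 (5.91 to 7.42) in HE, 2.61 (2.16 to 3.12) in EHT cells, 1.03 (0.795 to 1.32) in type I and 0.636 (0.443 to 0.885) in type II pre-HSCs, with 1.13 (0.987 to 1.3) in c-kit+CD31+ and 0.461 (0.331 to 0.62) in c-kit+ IAHC cells, beside 0.413 (0.249 to 0.645) in YS HSPCs. *Tie1* was found in 58.9% (46.8 to 70.3) of E10 IAHC cells and in 10.6% (6.08 to 16.9) of E10 YS HSPCs. At E11 the c-kit+ IAHC cells (30.3%) were no higher in this share than YS HSPCs (30.4%), and *Tie1* in c-kit+ IAHC cells is not read as more than that level.

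*Tek*, the angiopoietin receptor, was lower than *Tie1* in every population of the series and had its highest mean in E11 HE cells. Its E10 means were 1.77 (1.4 to 2.21) transcripts per cell in non-HE, 1.43 (1.2 to 1.7) in HE, 0.408 (0.323 to 0.510) in EHT and 0.260 (0.157 to 0.406) in IAHC cells, beside 0.0213 (0.00439 to 0.0622) in YS HSPCs. At E11 *Tek* averaged 2.27 (1.8 to 2.87) in non-HE, 4.24 (3.66 to 4.88) in HE, 1.6 (1.2 to 1.97) in EHT cells, 0.532 (0.366 to 0.747) in type I and 0.291 (0.166 to 0.472) in type II pre-HSCs, with 0.602 (0.50 to 0.719) in c-kit+CD31+ and 0.202 (0.120 to 0.32) in c-kit+ IAHC cells, beside 0.109 (0.0353 to 0.254) in YS HSPCs. The intervals of E10 EHT and IAHC cells overlap, as do those of type I pre-HSCs and c-kit+CD31+ IAHC cells.

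*Vwf* was the most abundant member in 8 of the 13 populations, among them every population of IAHC cells and pre-HSCs. At E10 *Vwf* averaged 7.51 (6.71 to 8.38) transcripts per cell in non-HE, 3.49 (3.13 to 3.88) in HE, 1.16 (1.0 to 1.32) in EHT and 0.945 (0.735 to 1.2) in IAHC cells. At E11 its means were 5.93 (5.09 to 6.87) in non-HE, 8.87 (8.03 to 9.77) in HE and 2.91 (2.44 to 3.45) in EHT cells. In the other E11 populations it averaged 1.97 (1.63 to 2.35) transcripts per cell in type I and 1.2 (0.928 to 1.53) in type II pre-HSCs, with 2.48 (2.26 to 2.7) in c-kit+CD31+ and 1.17 (0.955 to 1.4) in c-kit+ IAHC cells, while YS HSPCs were at 0.0217 (0.00055 to 0.121). At least 1 *Vwf* transcript was found in 56.2% (44.1 to 67.8) of E10 IAHC cells against 1 of 141 E10 YS HSPCs, and in 75.6% (69.1 to 81.4) of E11 c-kit+CD31+ IAHC cells against 1 of 46 E11 YS HSPCs. *Vwf* is also made by megakaryocytes, whose 8 markers summed to 0.726 transcripts per cell in E10 IAHC cells and to 1.5 in E10 YS HSPCs, and their part in the *Vwf* values was not tested. The 4 sorted sets of c-kit+CD31+ IAHC cells lay between 2.33 and 2.63 for *Vwf*, while the 2 sets of E11 non-HE cells lay at 4.11 and 9.09, on both sides of the E11 HE mean of 8.87.

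The 3 VEGF receptor genes were sparse. *Kdr* averaged 0.488 (0.302 to 0.747) transcripts per cell in E10 non-HE, 0.194 (0.117 to 0.303) in HE, 0.0576 (0.0287 to 0.103) in EHT and 0.0274 (0.00332 to 0.0990) in IAHC cells, and at 0 of 141 YS HSPCs the share of cells with a detected transcript could be up to 2.13% (3 cells of the total). Its mean at the later stage was 1.1 (0.757 to 1.54) in non-HE, 0.891 (0.640 to 1.2) in HE and 0.217 (0.104 to 0.400) in EHT cells, and between 0.0484 and 0.152 in the 5 other populations, of which YS HSPCs had the 0.152. *Kdr* was found in 10.4% of E11 c-kit+CD31+ IAHC cells and in 10.9% of YS HSPCs, so its presence in IAHC cells is not read as more than the level of yolk sac cells. *Flt1*, the decoy-like receptor, was highest in HE cells at both stages, at 0.398 (0.283 to 0.544) and 0.543 (0.352 to 0.802), although these intervals overlap those of non-HE cells, at 0.279 (0.144 to 0.487) and 0.333 (0.160 to 0.613). *Flt1* was at 0.0733 in E10 EHT and 0.174 in E11 EHT cells, and from 0.0142 to 0.109 in the other populations. *Flt4*, the receptor for VEGF-C known from lymphatic vessels, was highest in non-HE cells, with 0.674 (0.452 to 0.969) at the earlier and 0.467 (0.255 to 0.783) at the later stage, and with 0.306 and 0.304 in HE cells. Its mean was at most 0.0484 in the other populations, and *Flt4* was found in 0 of 46 E11 EHT cells, so that the share with a detected transcript could be up to 6.52% by the same limit, which does not bear on cells that express it without a count.

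*Nrp2*, the neuropilin of veins and lymphatic vessels, was the member whose transcripts were most confined to a few endothelial cells. In E10 non-HE cells its 26 transcripts came from 7 of 43 cells, with up to 11 in 1 cell, and in E11 non-HE cells its 19 transcripts came from 7 of 30 cells. In HE cells it had 2 transcripts in 98 cells at E10 and 1 in 46 cells at E11, and its mean was at most 0.0968 in the remaining populations. Non-HE cells with and without *Nrp2* were then compared, a split chosen after these values were seen. *Nrp1* was found in 2 of the 7 E10 non-HE cells with *Nrp2* and in 35 of the 36 without, and in 2 of the 7 E11 cells with *Nrp2* and in 22 of the 23 without. The mean of *Nrp1* was 0.714 (0.232 to 1.67) against 5.36 (4.63 to 6.17) transcripts per E10 cell, and 2.57 (1.5 to 4.06) against 8.57 (7.41 to 9.85) per E11 cell. *Flt1* had 0 transcripts in the 7 cells with *Nrp2* at each stage and 12 and 10 in the cells without. *Vwf* was found in 2 of 7 E10 cells with *Nrp2*, against 35 of 36 without, and in 4 of 7 against 19 of 23 at E11. *Efnb2*, a ligand known from arteries, averaged 0.143 against 2.33 at E10 and 0.857 against 2.17 at E11, whereas *Ephb4*, its receptor known from veins, averaged 1.6 against 0.861 and 1.3 against 1.4. *Gja4* averaged 0.714 against 6.08 at E10 and 3.43 against 8.70 at E11. *Dll4* averaged 0.571 against 0.806 and 0.286 against 0.652, with intervals that overlap at both stages. *Tie1*, *Tek* and *Plxnd1* were found in 5 or more of the 7 cells with *Nrp2* at both stages, with *Plxnd1* means of 1.86 against 3.22 at E10. The *Flt4* and *Kdr* means were higher in cells with *Nrp2*. *Flt4* averaged 1.43 (0.685 to 2.63) with against 0.528 (0.318 to 0.824) without *Nrp2* at E10 and 0.571 against 0.435 at E11, and *Kdr* 0.714 against 0.444 and 1.43 (0.685 to 2.63) against 1.00 (0.634 to 1.5), with intervals that overlap. *Cdh5*, the general endothelial marker, was lower too in cells with *Nrp2*, at 3.57 (2.31 to 5.27) against 8.03 (7.13 to 9.01) in E10 and 4.29 (2.89 to 6.12) against 7.57 (6.48 to 8.78) in E11 non-HE cells.

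*Vegfa*, the ligand, was found in endothelial cells of both stages at low levels, and E11 HE cells stood apart. It averaged 0.488 (0.302 to 0.747) transcripts per cell in E10 non-HE, 0.163 (0.0933 to 0.265) in HE and 0.0524 (0.0251 to 0.0963) in EHT cells, with 0 in 73 IAHC cells and in 141 YS HSPCs. At E11 *Vegfa* averaged 0.233 (0.0938 to 0.481) in non-HE, 1.04 (0.769 to 1.38) in HE and 0.0652 (0.0134 to 0.191) in EHT cells, and at most 0.0484 in the 5 other populations. A *Vegfa* transcript was present in 23 of 46 E11 HE cells and in 5 of 30 E11 non-HE cells. The E11 HE cells are a single sorted set, so a feature of that set and of the population cannot be told apart.

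**Figure D2:**
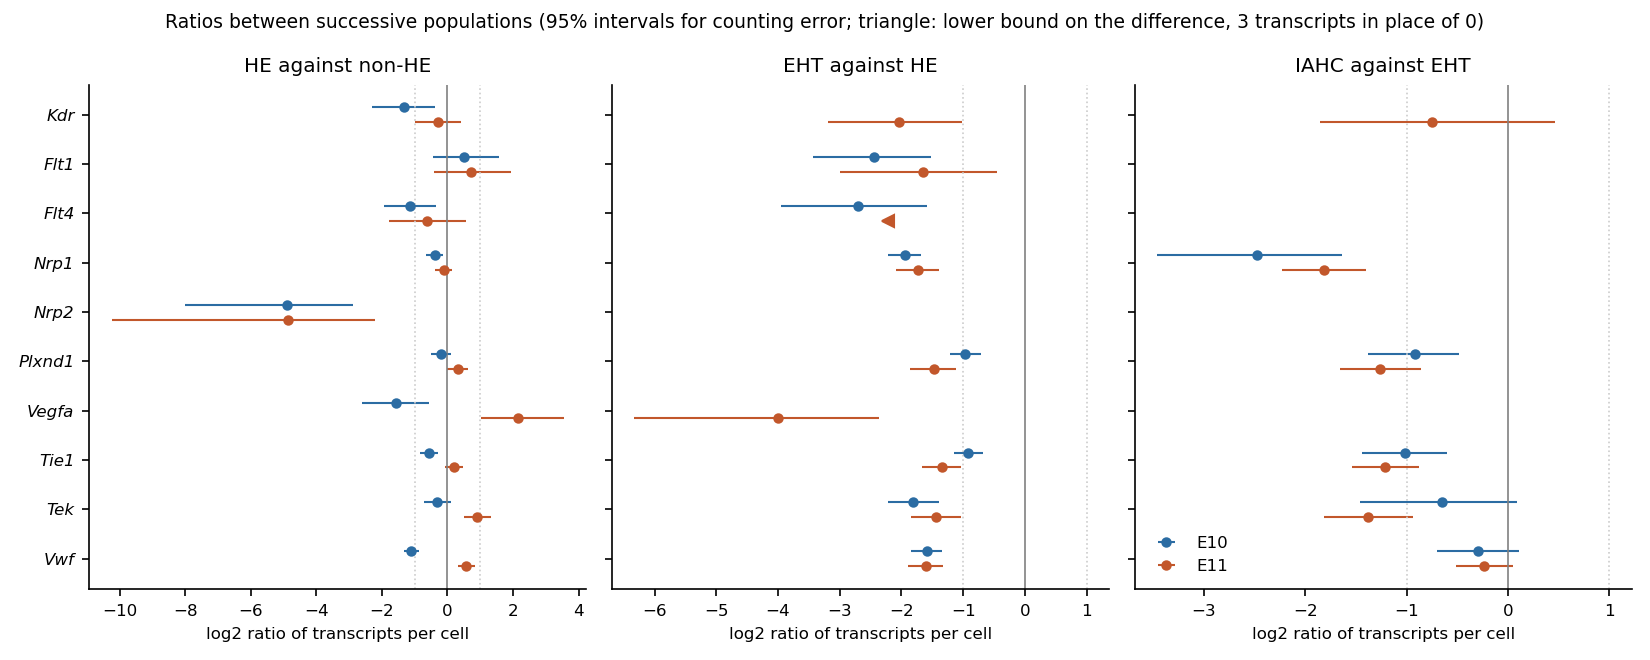
Ratios of transcripts per cell (log2, horizontal axis) between successive populations for the members with 0.2 or more transcripts per cell in 1 of the 2, at E10 (blue) and E11 (orange), with 95% intervals for counting error. Dotted lines mark 2-fold, and the triangle marks a lower bound on the difference for *Flt4*, of which E11 EHT cells held 0. All ratios of EHT to HE cells lie below 0, and *Vwf* lies nearest to 0 among the ratios of IAHC to EHT cells. For *Flt1* and *Flt4* at both stages and *Vegfa* at E11, the limit set the direction of the ratio of EHT to HE cells.

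The first comparison asked how HE cells differ from other Cdh5+ cells of the AGM that lack the *Gfi1* reporter. At E10, 5 of the 10 members were at least 2-fold lower in HE cells, against 9.10% of the 4252 genes measured, that is with 0.2 or more transcripts per cell in 1 of the 2 populations. These were *Nrp2* (log2 ratio -4.89, interval -8.01 to -2.89), *Vegfa* (-1.58, -2.62 to -0.57), *Kdr* (-1.33, -2.31 to -0.37), *Flt4* (-1.14, -1.93 to -0.35) and *Vwf* (-1.11, -1.33 to -0.88), and 0 of the 10 were at least 2-fold higher, against 9.24% of genes. A gene that reaches 0.2 in only 1 population can only come out lower in the other. This was so for *Nrp2*, *Vegfa* and *Kdr* at E10 and for *Nrp2* at E11, with non-HE cells as the higher population. For each of the 5, the means of the 2 sets of HE cells lay below those of the 2 sets of non-HE cells, for example 3.13 and 4.08 against 7.18 and 8.13 for *Vwf*. The column names put these non-HE cells, but not the HE cells, at early E11. By those names, stage and cell type cannot be told apart here. *Tie1* (-0.56) and *Nrp1* (-0.38) were lower by less, and the intervals of *Tek*, *Plxnd1* and *Flt1* included 0. At E11, 1 member was at least 2-fold lower in HE cells, against 11.3% of 5874 genes, and 1 at least 2-fold higher, against 11%. The lower one was *Nrp2* (-4.86, -10.24 to -2.21) and the higher one *Vegfa* (2.16, 1.0 to 3.55). *Tek* was higher by 0.90 (0.50 to 1.32) with both non-HE sets (2.26 and 2.27) below the HE mean, and *Vwf* by 0.58 (0.32 to 0.84), although 1 of the 2 non-HE sets lay above the HE mean. Erythroid markers were higher in HE cells (1 of 1 measured at E10 and 2 of 2 at E11), from a summed mean of 0.0698 to one of 0.694 at E10. Of the haematopoietic markers 2 of 2 were higher at E10 and 1 of 1 lower at E11, and of the mesenchymal ones 1 of 2 was lower at E10, and at E11 1 of 4 was lower and 1 higher. The part of these markers in the members' values was not tested. With 0.5 transcripts per cell added to each mean, 8 of the 11 counts of lower members over the comparisons within a stage were smaller by over 1.5 times.

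The second comparison took the step from HE to EHT cells, in which c-kit appears. At E10, 5 of 7 measured members were at least 2-fold lower in EHT cells, against 11% of 4205 genes (0 higher, against 7.68%), namely *Flt4* (log2 ratio -2.70, -3.96 to -1.59), *Flt1* (-2.44, -3.44 to -1.53), *Nrp1* (-1.95, -2.22 to -1.68), *Tek* (-1.81, -2.23 to -1.4) and *Vwf* (-1.59, -1.84 to -1.34). *Plxnd1* (-0.96, -1.2 to -0.71) and *Tie1* (-0.91, -1.15 to -0.68) were just short of 2-fold. At E10, *Flt4* and *Flt1* reached the limit for a measured gene in HE cells only, so the limit set their direction. At E11, HE and EHT cells are 1 sorted set each, so set and population cannot be told apart. There, all 9 measured members were at least 2-fold lower, against 17.3% of 5703 genes (12.6% higher). They ranged from *Tie1* (-1.3, -1.66 to -1.04) to *Vegfa* (-4.00), with *Kdr* at -2.04 (-3.20 to -1.0), *Nrp1* at -1.74 (-2.09 to -1.4), *Flt1* at -1.64, *Vwf* at -1.61, *Plxnd1* at -1.5 and *Tek* at -1.44. *Flt4* went from 14 transcripts in HE cells to 0 in the same number of EHT cells, which is at least 4.67-fold lower with 3 transcripts as the limit for a population. At E11, *Flt1*, *Flt4* and *Vegfa* reached the limit for a measured gene in HE cells only. These members could only come out lower in EHT cells. The endothelial markers were lower in the same step (9 of 10 at E10 and 8 of 10 at E11 by at least 2-fold), and 6 of 6 measured haematopoietic markers were higher at both stages. Most of these haematopoietic markers reached the limit for a measured gene in EHT cells only and so could only come out higher there. Mesenchymal markers were lower as well (2 of 2 measured at E10 and 4 of 4 at E11), as were erythroid ones (1 of 1 and 2 of 2). The erythroid markers, and the mesenchymal ones at E10, reached the limit in HE cells only and so could only come out lower. Of the megakaryocyte markers, the 1 measured at E11 was higher in EHT cells (log2 ratio 2.02 with 0.1 added to each mean), and 0 were measured at E10. Macrophage markers were higher (1 of 1 and 2 of 2), with *Lyz2* at 3 and 76 and *Ctss* at 0 and 76 transcripts in the 46 E11 HE and 46 E11 EHT cells. Few cells carry these, as 1 E11 EHT cell held 42 of the 76 *Ctss* transcripts, found in 6 cells, and 1 held 24 of the 76 of *Lyz2*, found in 20. The measured macrophage and megakaryocyte markers reached the limit in EHT cells only, so the limit set their direction. The part of all these markers in the members' values was not tested.

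From EHT to IAHC cells the members diverged. E10 IAHC cells and E11 EHT cells are 1 sorted set each, so set and population cannot be told apart for them. At E10, 2 of 5 measured members were at least 2-fold lower in IAHC cells, against 11.4% of 4088 genes, and 0 higher, against 6.41%. *Nrp1* was lower by the widest margin (log2 ratio -2.48, -3.46 to -1.64), *Tie1* was lower 2.02-fold and *Plxnd1* 1.89-fold, while the intervals of *Tek* (-1.46 to 0.09) and *Vwf* (-0.70 to 0.10) included 0. At E11, 4 of 6 measured members were at least 2-fold lower in c-kit+CD31+ IAHC cells, against 17.2% of 5495 genes (10.9% higher), which were *Nrp1* (-1.82, -2.23 to -1.4), *Tek* (-1.38, -1.81 to -0.94), *Plxnd1* (-1.26) and *Tie1* (-1.2). *Vwf* had a ratio of -0.23 (-0.51 to 0.05) and *Kdr* one of -0.75 (-1.85 to 0.47). Compared with EHT cells, type I pre-HSCs had 4 of 6 measured members at least 2-fold lower, against 17.4% of 5357 genes, and 0 higher, against 8.27%, with *Kdr* at -2.17 (set means of 0 to 0.25, around the EHT mean of 0.217), *Tek* at -1.56, *Nrp1* at -1.51 and *Tie1* at -1.34. *Nrp1* at E10 and *Kdr* against type I pre-HSCs reached 0.2 transcripts per cell in EHT cells only, so the limit set their direction. Marker lists moved as well. Of 9 measured endothelial markers, 1 was at least 2-fold lower in E10 IAHC cells. In c-kit+CD31+ IAHC cells 3 were lower and 1 higher, and in type I pre-HSCs 2 were lower and 2 higher. Of 6 haematopoietic markers, 2 were higher in E10 IAHC cells and 1 in type I pre-HSCs, and 1 was higher and 1 lower in c-kit+CD31+ IAHC cells. Macrophage markers were at least 2-fold lower than in E11 EHT cells in c-kit+CD31+ IAHC cells and in type I pre-HSCs (2 of 2 measured in each, with *Ctss* at 1 and 0 transcripts against 76), and mesenchymal markers were higher in both (2 of 2 and 1 of 1). Of the megakaryocyte markers, whose cells also make *Vwf*, *Itga2b* was higher than in EHT cells in E10 IAHC (3.54-fold, the 1 measured) and c-kit+CD31+ IAHC cells (3.15-fold, 1 of 2 measured), and of the 2 in type I pre-HSCs 1 was higher and 1 lower. Erythroid markers were at least 2-fold higher in E10 IAHC cells (2 of 2 measured) and in type I pre-HSCs (3 of 3) than in EHT cells. The summed mean of 8 erythroid markers was 0.0419 in E10 EHT and 1.51 in E10 IAHC cells, and 0.0652 in E11 EHT cells, 3.47 in type I pre-HSCs and 0.224 in c-kit+CD31+ IAHC cells. Their part in the members' values was not tested.

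Within the clusters, type I and type II pre-HSCs differed most in *Nrp1*. It was the 1 member of 5 at least 2-fold lower in type II cells, against 5.28% of 4996 genes, with a log2 ratio of -2.67 (-4.19 to -1.43). With 0.5 added to each mean this count was 0, and with cells at 3000 transcripts it was 2. *Nrp1* reached 0.2 transcripts per cell in type I cells only, so the limit set its direction. *Nrp1* was found in 25 of 62 type I cells and in 6 of 55 type II cells, and its set means were 0.375 to 0.912 in type I and 0 to 0.200 in type II cells, which did not overlap. *Plxnd1* (-0.79), *Vwf* (-0.71) and *Tie1* (-0.70) were lower by less, with set means that met or overlapped, and *Tek* (-0.87) had an interval that included 0. The column names number 3 sorted sets of each type, and in every one of these *Nrp1* was lower in type II cells, at 0.375 and 0, 0.912 and 0.200, and 0.45 and 0.05 in type I and type II cells. This was not particular to *Nrp1*, as *Plxnd1*, *Tie1* and *Tek* were also lower in type II cells in all 3 numbered sets, and *Vwf* in 2. In the same comparison 5 of 9 measured endothelial markers were at least 2-fold lower and 3 of 8 haematopoietic markers higher in type II cells, and 1 of 3 erythroid markers was lower (*Hba-x*, 41 transcripts in 62 type I and 15 in 55 type II cells), and their part in the *Nrp1* difference was not tested. Compared with c-kit+CD31+ IAHC cells, the c-kit+ IAHC cells had 3 of 5 measured members at least 2-fold lower, against 4.24% of 4903 genes, and 0 higher, against 3.16%. These were *Tek* (-1.6, -2.38 to -0.85), *Tie1* (-1.3, -1.81 to -0.81) and *Vwf* (-1.08, -1.4 to -0.78), whereas *Nrp1* (0.24, -0.24 to 0.70) and *Plxnd1* (-0.18, -0.63 to 0.26) had intervals that included 0. With cells at 3000 transcripts 1 of the 3, *Tek* (-1.78), stayed past 2-fold, with *Tie1* at -0.99 and *Vwf* at -0.92, and with 0.5 added to each mean 0 did. The 8 mesenchymal markers summed to 1.66 transcripts per cell in c-kit+ IAHC cells and 0.881 in c-kit+CD31+ IAHC cells. The erythroid gene *Hbb-y* was 5.97-fold higher (37 transcripts in 89 cells against 14 in 201) and the macrophage gene *Lyz2* 2.57-fold lower (20 against 116) in c-kit+ IAHC cells. Their part in the members' values was not tested. In the 47 c-kit+ and 140 c-kit+CD31+ IAHC cells that passed a stricter rule, with more than 1 *Gpr56* transcript and at most 2 of each of 11 genes of other cells, *Nrp1* had the opposite sign, with a log2 ratio of -0.65 (-1.68 to 0.27).

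At E10 the measured members were lower in YS HSPCs than in IAHC cells, and at E11 lower than in c-kit+CD31+ IAHC cells. All 4 measured members were at least 2-fold lower in E10 YS HSPCs, against 11.4% of 3812 genes (8.87% higher), from *Plxnd1* (log2 ratio -2.26, -3.06 to -1.5) to *Vwf* (-7.06, -12.38 to -4.53). All 5 were at least 2-fold lower at E11, against 14.5% of 4871 genes (5.15% higher), from *Plxnd1* (-1.32, -2.23 to -0.53) to *Vwf* (-6.83, -12.14 to -4.35). For *Vwf* each of these rests on 1 transcript in YS HSPCs. All 4 members at E10, and *Nrp1*, *Tek* and *Vwf* at E11, reached 0.2 transcripts per cell in the IAHC cells only. A gene that does so can only come out lower in YS HSPCs, so the limit set their direction. In *Tie1* and *Tek*, E11 c-kit+ IAHC cells were nearer to YS HSPCs, with *Tie1* means of 0.461 (0.331 to 0.62) and 0.413 (0.249 to 0.645) and *Tek* means of 0.202 (0.120 to 0.32) and 0.109 (0.0353 to 0.254), which overlap. For *Nrp1*, *Plxnd1* and *Vwf* the means were higher in c-kit+ IAHC cells than in YS HSPCs, with intervals that did not overlap. The *Nrp1* mean of c-kit+ IAHC cells was no nearer to YS HSPCs than that of c-kit+CD31+ IAHC cells. Of the endothelial markers 8 of 9 were lower at each stage. Erythroid markers were higher in E11 YS HSPCs (5 of 5 measured, with a summed mean of 5.43 against 0.224) and mixed at E10 (2 higher and 1 lower of 4), and megakaryocyte markers were higher (1 of 1 at E10 and 2 of 3 at E11), macrophage markers lower (1 of 1 at each stage) and mesenchymal ones lower at E11 (2 of 2). What part these had in the members' values was not tested.

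Stages were compared with E11 cells thinned to 3000 transcripts. HE cells, EHT cells and YS HSPCs at E11, and IAHC cells at E10, are 1 sorted set each. Set and stage cannot be told apart for them. In HE cells, 2 of 9 measured members were at least 2-fold higher at E11, against 7.95% of 4112 genes, and 0 lower, against 13.8%, namely *Vegfa* (log2 ratio 1.95, 1.02 to 2.93) and *Kdr* (1.54, 0.63 to 2.48). Both reached 0.2 transcripts per cell at E11 only, so the limit set their direction. *Tek* (0.86, 0.49 to 1.2), *Vwf* (0.67, 0.43 to 0.91) and *Tie1* (0.45, 0.18 to 0.72) were higher by less in E11 HE cells. In non-HE cells, 3 of 10 members were at least 2-fold lower at E11, against 15.7% of 4293 genes, and 0 higher, against 9.81%, which were *Vegfa* (-1.55, -3.31 to -0.10), *Flt4* (-1.17, -2.43 to -0.05) and *Vwf* (-1.05, -1.37 to -0.73). Split by sorted set, a split made after seeing the data, these 3 rest on the E11 set of 19 cells (-2.21, -2.09 and -1.6), for in the set of 11 cells the ratios were -0.84, -0.31 and -0.44, short of 2-fold, and 3 other members were past it there on 1 to 3 transcripts each (*Kdr*, *Flt1* and *Nrp2*). The column names put the set of 19 cells at late E11 and the set of 11 cells at E11.5. They put the non-HE cells labelled E10 at early E11, so by those names this comparison lies within E11. Over both sets, *Vegfa* reached 0.2 transcripts per cell at E10 only, so the limit set its direction. The *Vwf* means of these sets at 3000 transcripts were 2.53 and 5.55, against 7.18 and 8.13 in the E10 sets. The ratio of *Vegfa* between stages was thus above 0 in HE and below 0 in non-HE cells, a difference that was not tested. In EHT cells 0 of 5 measured members passed 2-fold in either direction, against 15.0% of 3970 genes lower and 5.82% higher, and *Tek* (0.94, 0.33 to 1.53) came nearest. In IAHC cells 0 of 5 were at least 2-fold lower or higher at E11, against 11% of 3651 genes lower and 3.70% higher, with *Nrp1* at 0.95 (0.05 to 1.98), *Vwf* at 0.62 (0.23 to 1.02) and *Plxnd1* at -0.59 (-1.09 to -0.08). In YS HSPCs, *Tie1* was the 1 measured member, at 0.121 transcripts per cell at E10 and 0.326 at E11, a log2 ratio of 1.44 (0.33 to 2.53). It reached 0.2 at E11 only and so could only come out higher there. Of 3439 genes measured, 5.21% were at least 2-fold higher and 20.6% lower. Other markers differed with stage too. Haematopoietic markers were lower in E11 HE cells (2 of 2 measured), macrophage markers higher in E11 EHT cells (2 of 2, with *Ctss* at 0 transcripts in E10 and 40 in E11 EHT cells) and erythroid markers lower in E11 IAHC cells (2 of 2, with *Hbb-y* at 67 and 5 transcripts in 73 E10 and 201 E11 cells). In E11 HE cells 1 of 3 mesenchymal and 1 of 10 endothelial markers were higher, and 1 of 9 endothelial markers was lower in EHT and in IAHC cells, as was the 1 megakaryocyte marker measured in IAHC cells. In YS HSPCs 2 of 5 erythroid markers were higher and 1 lower, and 2 of 3 endothelial and 1 of 2 megakaryocyte markers were higher. Their part in the members' values was not tested.

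**Figure D3:**
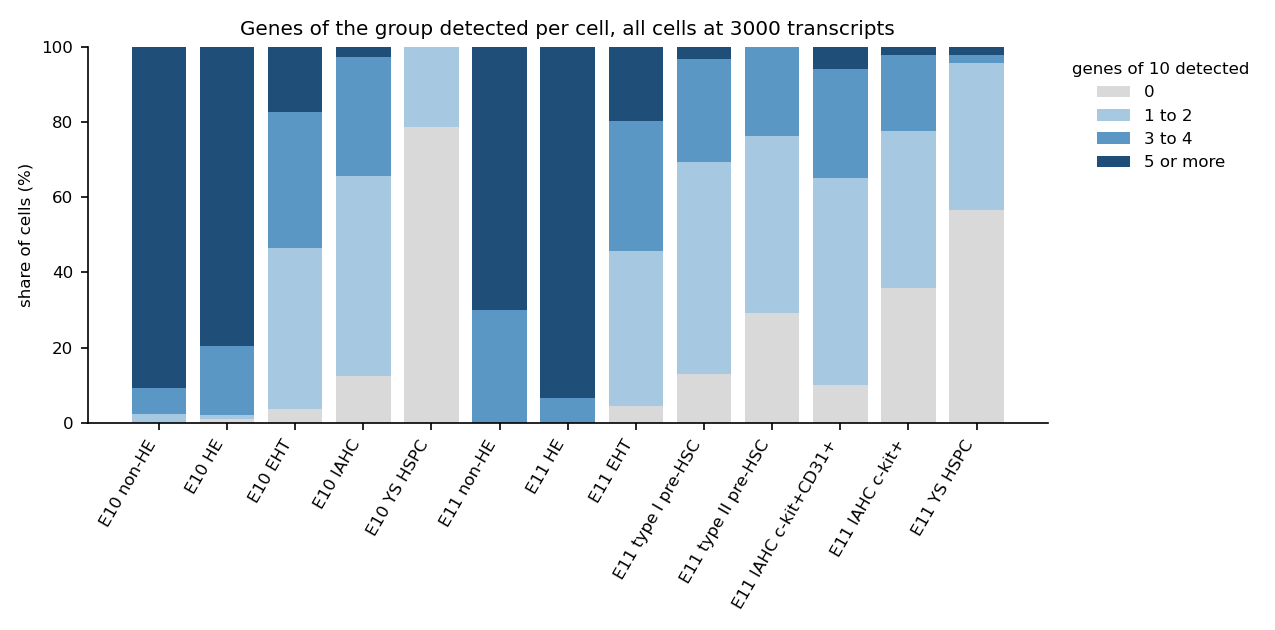
Share of cells (vertical axis, percent) in each of the 13 populations with 0, 1 to 2, 3 to 4 or 5 or more of the 10 genes detected, with every cell at 3000 transcripts. At least 5 were detected in 79.6% of E10 HE and 93.5% of E11 HE cells, and in 33 of 191 E10 EHT and 9 of 46 E11 EHT cells.

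Counted per cell at 3000 transcripts, the median number of members detected at E10 was 6 in non-HE, 5 in HE, 3 in EHT and 2 in IAHC cells and 0 in YS HSPCs. At E11 it was 5 in non-HE, 6 in HE and 3 in EHT cells, 2 in type I and 1 in type II pre-HSCs, 2 in c-kit+CD31+ and 1 in c-kit+ IAHC cells and 0 in YS HSPCs. None of the 10 was detected in 1 of 98 E10 HE and 0 of 46 E11 HE cells, against 9 of 73 E10 IAHC cells and 20 of 201 E11 c-kit+CD31+ IAHC cells. The make-up of the group differed as well. *Nrp1* made up 23.3% of all member transcripts in E10 HE cells, 16.2% in EHT and 5.53% in IAHC cells, and *Vwf* made up 23.0%, 20.4% and 31.8% of them. In E11 cells *Nrp1* made up 19% in HE and 9.60% in c-kit+CD31+ IAHC cells, and *Vwf* 25.9% and 42.3%.

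**Figure D4:**
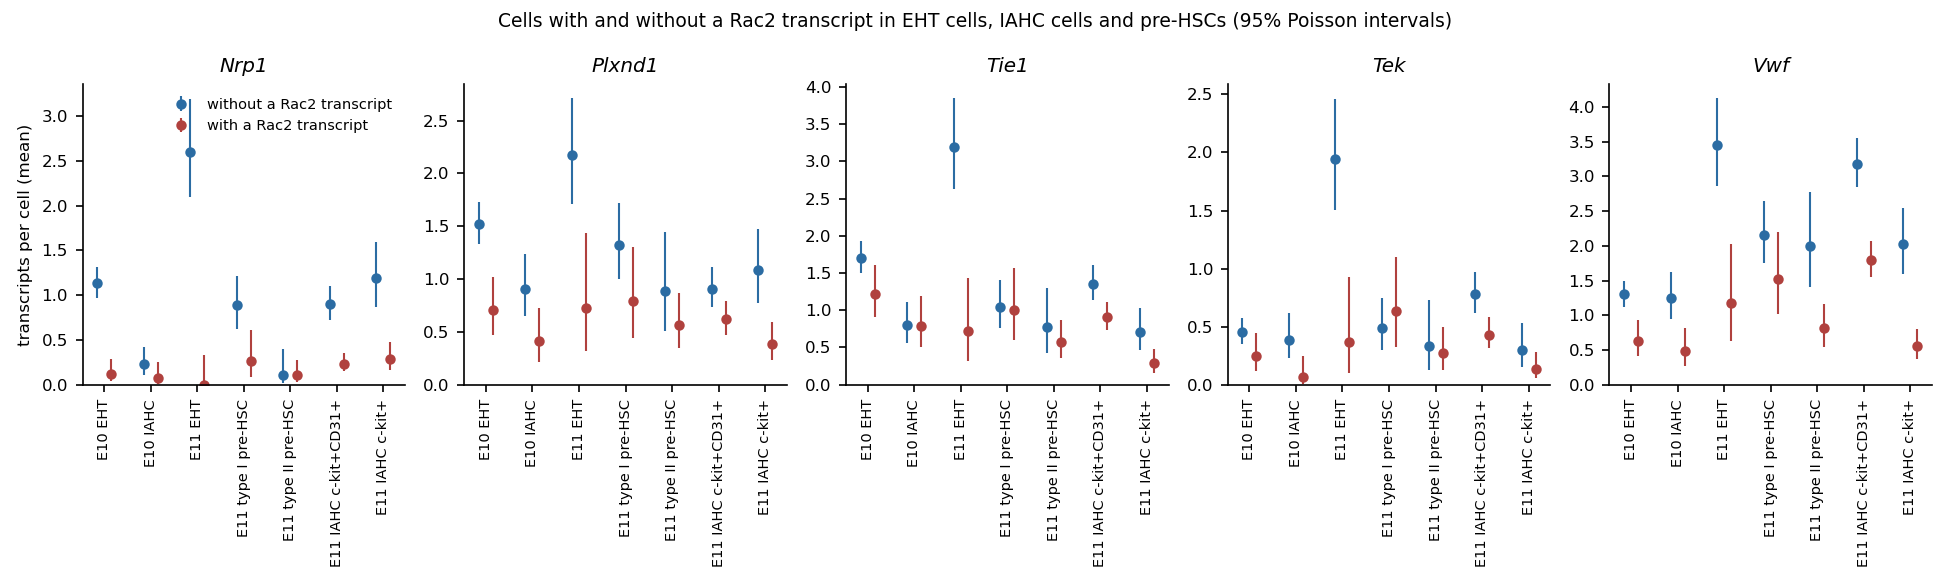
Mean transcripts per cell (vertical axis) of 5 members in cells without (blue) and with (red) a *Rac2* transcript in 7 populations, with 95% Poisson intervals. For *Nrp1* the means of cells with *Rac2* lie below those of cells without in 6 of the 7 populations by more than 2-fold and are nearly equal in type II pre-HSCs, at 0.108 and 0.111.

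Cells of a population were also compared by *Rac2*, a small GTPase of blood cells, and not every member differed. *Rac2* divided the 46 E11 EHT cells into 11 with and 35 without a transcript. The 11 held 0 *Nrp1* transcripts (0 to 0.335 per cell) and the 35 a mean of 2.60 (2.09 to 3.19). *Tie1* averaged 0.727 (0.314 to 1.43) with and 3.20 (2.63 to 3.85) without *Rac2*, and *Tek* 0.364 (0.0991 to 0.931) and 1.94 (1.51 to 2.46). In E10 EHT cells *Nrp1* averaged 0.122 (0.0396 to 0.285) in 41 cells with *Rac2* and 1.13 (0.969 to 1.32) in 150 without, whereas the intervals of *Tie1*, 1.2 (0.905 to 1.61) and 1.71 (1.5 to 1.93), overlap. In E11 c-kit+CD31+ IAHC cells *Vwf* was at 1.79 (1.54 to 2.07) in 102 cells with and 3.18 (2.84 to 3.55) in 99 cells without *Rac2*, and *Nrp1* at 0.235 (0.151 to 0.350) and 0.899 (0.722 to 1.11). For c-kit+ IAHC cells the *Vwf* means were 0.558 (0.373 to 0.801) and 2.03 (1.59 to 2.54). In type I pre-HSCs *Tie1* was at 1.00 with and 1.05 without *Rac2*.

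Cells with 1 member were also compared with cells without it. Of 9 chosen pairs of members, several of which share a gene, those with at least 5 cells in each arm were counted. The mean of the second gene was higher in the cells with the first in 9 of 9 pairs in E11 EHT, 8 of 9 in E10 EHT, 7 of 7 in E10 IAHC and 9 of 9 in c-kit+CD31+ IAHC cells, and in 3 of 7 in type II pre-HSCs. Pairs of other genes were not counted, so these counts are not read as particular to the members. In type II pre-HSCs the 6 cells with *Nrp1* averaged 0.167 *Tie1*, 0.667 *Vwf* and 0.50 *Plxnd1* transcripts, against 0.694, 1.27 and 0.694 in the 49 without. These 6 cells enter 3 of the 4 exceptions, and the difference between populations was not tested. In E11 EHT cells, the 28 cells with *Tek* averaged 4.11 *Vwf* transcripts and the 18 without averaged 1.06, and the 21 cells with *Nrp1* averaged 3.05 *Plxnd1* transcripts and the 25 without 0.80. In E10 EHT cells, *Plxnd1* averaged 2.07 in 72 cells with and 0.91 in 119 cells without *Nrp1*. The authors had reduced all cells of a stage to the same number of transcripts, and the part of their depth before that was not tested.

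Across the 13 populations, with E11 at 3000 transcripts, the profile most like that of each member was sought among 6021 genes by Pearson's r of log2(mean + 0.1). The points share a common depth and a common division into endothelial and blood cells, and r is given as a description. *Tie1*, *Tek* and *Plxnd1* followed *Pea15a* (0.98), *Mmrn2* (0.98) and *Plvap* (0.99). *Nrp1* was most like *Gja4* (0.99), which encodes a gap junction protein of arterial endothelium, *Vwf* most like *Cdh5* (0.98), which encodes VE-cadherin, and *Flt4* most like *Cd40* (0.99). For *Kdr* the most similar gene was *Apbb2* (0.97), for *Flt1* *Iffo2* (0.97), for *Vegfa* *Has2* (0.98) and for *Nrp2* *Col15a1* (0.97). *Nrp2* was the member least like the others, with r between 0.42 and 0.71. With a pseudocount of 0.5 in place of 0.1, the first gene was another one for 5 of the 10 members.

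Genes that work beside the members were counted in the same way at the step from HE to EHT cells, where 11% of all genes were at least 2-fold lower and 7.68% higher at E10, and 17.3% and 12.6% at E11. Of 13 receptor partners, 9 were measured at E10 and 11 at E11, with 6 and 5 at least 2-fold lower in EHT cells and 1 higher at each stage (*Itgb3* by 1.33 at E10 and *Dab2* by 1.74 at E11, which was lower by 2.70 at E10). Among them were *Ptprb* (log2 ratio -1.75, -2.23 to -1.3, in E10 cells and -1.66, -2.10 to -1.23, in E11 cells), a phosphatase that restrains Tie2 and VEGFR2, and *Efnb2* (-1.87 and -1.6), which guides VEGF receptor uptake, while *Ephb4* (-0.82 and -0.69) was within 2-fold and *Gipc1* (-0.40 and -0.31), which binds neuropilin tails, had intervals that included 0. Of 26 genes of signal transduction, 4 of 18 measured at E10 and 4 of 20 at E11 were at least 2-fold lower and 1 higher at each stage, of which the E11 share lies near that of all genes. *Nos3*, the endothelial nitric oxide synthase, was lower by 1.56 and 1.55, whereas *Cdc42* (-0.21 and -0.52), *Rac1* (-0.44 and -0.36), *Akt1* (0.21 and -0.26) and *Plcg2* (0.47 and 0.32) stayed within 2-fold. Of the VEGF-responsive and feedback genes, 2 of 4 measured at E10 and 4 of 6 at E11 were at least 2-fold lower, with *Dll4* (-1.88 and -1.87), the Notch ligand of tip cells, and *Klf2* (-1.72 and -1.74), a flow-responsive factor, lower at both stages, *Foxo1* (-0.96 and -0.88) within 2-fold and *Nr4a1* (-0.34 and -0.95) with intervals that included 0. Of 14 further ligands, 3 were measured at each stage. *Angpt1*, the activating ligand of Tie2, was the 1 at least 2-fold higher in EHT cells, by 3.32 (1.9 to 5.23) at E10 and 2.58 (0.42 to 5.79) at E11, from 4 transcripts in 98 HE to 78 in 191 EHT cells and from 2 to 12 in 46 cells each, and it is named here after its values were seen. It reached 0.2 transcripts per cell in EHT cells only, so the limit set its direction. *Vegfc* had a ratio of -0.99 (-1.4 to -0.58) at E10, and its E11 interval (-1.13 to 0.02) included 0. *Sema3f* was lower by 3.91 at E11, and *Vegfb* had a ratio of 0.79 (0.03 to 1.61) at E10. Of 9 Weibel-Palade body and *Vwf*-related genes, 1 of 4 measured at E10 and 3 of 6 at E11 were at least 2-fold lower. *Edn1*, which encodes endothelin-1, was lower by 2.91 and 2.09, but *Cd63* (0.00 and 0.17), *Rab27a* (0.69 and -0.31) and *Procr* (0.45 and -0.16) stayed within 2-fold. The median log2 ratio (pseudocount 0.1) of the measured members was -1.51 at E10 and -1.6 at E11, beside 0.04 and -0.07 for all genes measured.

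wIAHCs were used to ask whether the members differ with stage or with the side of the aorta. The table holds 109 libraries, of which 57 had at least 5000 transcripts (5099 to 115328), 21 ventral and 7 dorsal ones at E10 and 17 ventral and 12 dorsal ones at E11. A wIAHC is a bulk sample, in which fewer cells of a type and less RNA per cell cannot be told apart. The names do not tell which wIAHCs share an embryo, so p-values over wIAHCs are too small. With the default low-count filter of edgeR, 260 genes were left and 0 of the 10 members were among them, so the members were tested without a filter on 13627 genes. Levels are given in CPM, the share of a gene in the transcripts of its library on the usual scale.

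**Figure D5:**
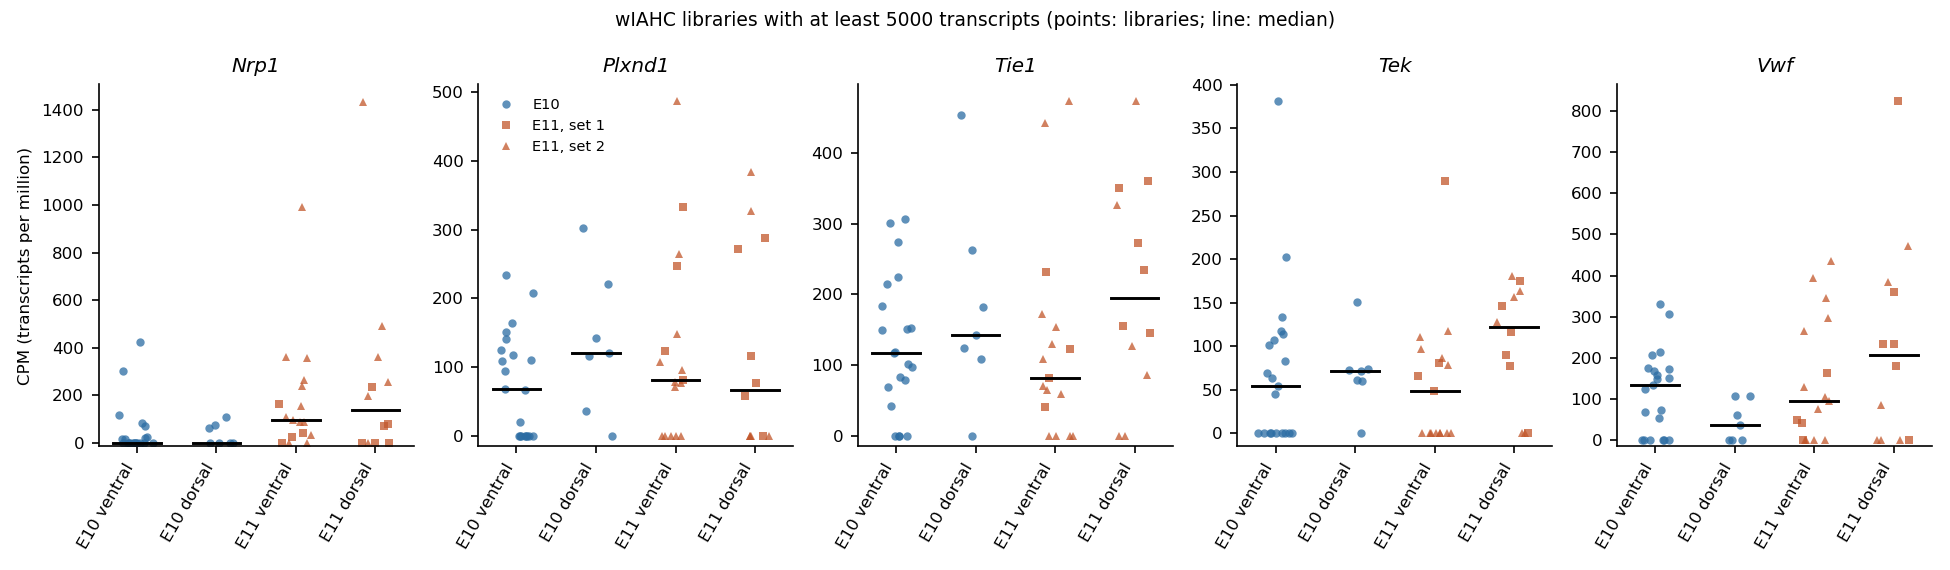
Level in CPM (vertical axis) of 5 members in each wIAHC library with at least 5000 transcripts, by stage and side. Points are libraries, circles for E10, squares and triangles for the 2 E11 collection sets, and the line is the median. The median of *Nrp1* is 0 in both E10 groups and 96.5 and 137 in the E11 ventral and dorsal groups, and the groups overlap for every gene shown.

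*Nrp1* was the 1 member called between stages. It was detected in 9 of 21 E10 ventral wIAHCs (lowest 0, median 0 and highest 425 CPM) and in 14 of 17 E11 ventral wIAHCs (0, 96.5 and 991). Among dorsal wIAHCs it was detected in 3 of 7 at E10 (0, 0 and 108) and in 8 of 12 at E11 (0, 137 and 1435). The E11 groups reach higher but overlap the E10 groups on both sides, and the highest library rests on 10 transcripts in the E10 ventral, 1 in the E10 dorsal and 9 in each E11 group. In ventral wIAHCs, the log2 fold change of *Nrp1* from E10 to E11 was 1.5 (SE 0.43, adjusted p = 0.0348, edgeR's quasi-likelihood test with Benjamini-Hochberg adjustment), which makes 1 of 10 members called, against 2.17% of 13627 genes. In dorsal wIAHCs it was 2.69 (SE 0.76, adjusted p = 0.0513 in the same test), and 0 of 10 members were called, against 0.704% of genes, with 3 at an unadjusted p under 0.05 and 0 by DESeq2. The interaction of stage and side for *Nrp1* was -1.2 (SE 0.89, adjusted p = 0.866 in edgeR's quasi-likelihood test).

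The call of *Nrp1* depended on the libraries and the tool. DESeq2 gave 1.41 in ventral wIAHCs (adjusted p = 0.702), and edgeR gave 0.93 (adjusted p = 0.357) with at least 10000 transcripts per library. With E11 wIAHCs of collection set 2 only, edgeR gave 1.77 (adjusted p = 0.00649), and with those of set 1 only 0.06 (adjusted p = 1.00). The median of *Nrp1* was 32.6 CPM in the 4 ventral wIAHCs of set 1 and 110 in the 13 of set 2, and 35.7 and 309 in the 6 dorsal ones of each. Leaving out each of the 57 libraries in turn gave adjusted p values from 0.000374 to 0.190 and log2 fold changes from 1.1 to 2.23, and the call was lost in 12 of 57. These were the fits without E10 ventral library 1, 3, 4, 5, 6, 9, 10 or 35 (adjusted p from 0.0549 to 0.0707) and without E11 ventral library 5, 9, 20 or 23 of set 2 (from 0.0544 to 0.190), with the highest p without library 5. In the dorsal comparison the adjusted p ranged from 0.0357 to 0.398, with the highest p without E10 dorsal library 47, and 21 of 57 such fits made the call. Erythroid and mesenchymal markers moved with stage too. Of 8 erythroid markers, 7 rose from E10 to E11 in ventral and 1 in dorsal wIAHCs, with a median sum of 152 (E10) and 3029 (E11) CPM in ventral and 301 (E10) and 1899 (E11) in dorsal wIAHCs, and of 7 tested mesenchymal markers *Col1a1* rose on both sides, with median sums of all 8 of 33.7 (E10) and 193 (E11) in ventral and 17.4 (E10) and 346 (E11) in dorsal wIAHCs. The 8 megakaryocyte markers had median sums of 167 (E10) and 183 (E11) CPM in ventral and 293 (E10) and 0 (E11) in dorsal wIAHCs. Of 7 tested, edgeR called 0 on either side, with 4 at an unadjusted p under 0.05 on each. The part of these markers in the *Nrp1* result was not tested. Without the 3 libraries over 10% haemoglobin, the ventral *Nrp1* value was 1.5 (adjusted p = 0.0496 in edgeR's test).

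The other abundant members showed no call. *Tie1* had a median of 117 CPM (0 to 306) in E10 ventral, 143 (0 to 453) in E10 dorsal wIAHCs, and at E11 81.2 (0 to 473) in ventral and 194 (0 to 473) in dorsal ones. *Vwf* had medians of 134 (0 to 330), 37.1 (0 to 108), 96.5 (0 to 436) and 207 (0 to 823) in the same order. For *Vwf* the change from E10 to E11 was -0.14 (SE 0.35, adjusted p = 0.883) in ventral and 1.4 (SE 0.58, adjusted p = 0.302) in dorsal wIAHCs in edgeR's test, and the interaction of stage and side was -1.54 (SE 0.68, adjusted p = 0.675). *Tek* had medians of 54.5, 71.2, 48.7 and 122 CPM and *Plxnd1* of 69.1, 121, 81.2 and 67.7, with all 4 groups overlapping. Between ventral and dorsal wIAHCs, edgeR called 0 of 10 members at E10, against 0.0220% of genes, and 0 of 10 at E11, against 0.00734%, and 0 of 10 in the interaction, against 0.0147%. At an unadjusted p under 0.05 there were 0, 4 and 1 members in these 3 contrasts, and DESeq2 called 0 in each.

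The sparse members were seen in few wIAHCs. *Kdr* was detected in 5 of 21 ventral and 1 of 7 dorsal wIAHCs at E10 and in 4 of 17 ventral and 5 of 12 dorsal ones at E11, and *Flt1* in 3, 1, 3 and 4 of them. *Vegfa* was detected in 4, 1, 4 and 0, *Nrp2* in 1, 1, 0 and 3, and *Flt4* in 0, 0, 0 and 2. *Kdr* had the largest of their changes with stage, 2.57 (SE 0.83, adjusted p = 0.126 in edgeR's test) in dorsal wIAHCs, which rests on 1 transcript at E10 and 10 at E11. In the E10 ventral group, 3 transcripts in a library of median depth make 206 CPM, and the highest libraries there rest on 2 transcripts for *Kdr*, 1 for *Flt1*, 3 for *Vegfa* and 1 for *Nrp2*. Of the listed partners, *Cd63* fell by 1.27 (SE 0.34, adjusted p = 0.0145) and *Procr* rose by 1.58 (SE 0.45, adjusted p = 0.0286) from E10 to E11 in ventral wIAHCs in the same test.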

How the data were processed

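The authors aligned CEL-Seq reads with BWA 0.6.2-r126 to mm10 (submitters' processing notes), and the first RaceID2 steps gave the tables. The single-cell tables hold the authors' estimated counts of transcripts, made from unique molecular identifiers, down-sampled to 3000 (E10) or 5000 (E11) per cell and raised by 0.1, which was taken off here. For wIAHCs the deposited estimated counts were corrected by the authors for collisions of 256 identifiers and not scaled for depth, and were rounded to whole numbers here for testing. The 90 spike-in rows were left out.

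The members and gene lists were chosen with earlier results of these data known. Single cells were summed per population, with no test. A gene was measured with 0.2 or more transcripts per cell in 1 of the 2 populations, and a 2-fold ratio was the limit. For a member, partner or marker that reached 0.2 in only 1 of the 2, the direction was set by that rule. Pathway genes are named if they reach 0.5 transcripts per cell in 1 population, at most 5 per list by their highest mean, or are called in wIAHCs. Of 3 most similar genes planned per member, the first is given. wIAHC side was read from column names. All 4 wIAHC groups entered 1 fit (edgeR 4.0.16, R 4.3.3, TMM, quasi-likelihood, adjusted p of 0.05), with DESeq2 1.42.0 as the second tool. The default filter removed every member, so members were tested without a filter. On simulated data for the ventral stage comparison (12892 genes), 9% of 2-fold and 86% of 4-fold changes were recovered, with 11 false among 106 calls, for changed genes at 70 to 1000 CPM. In E10 ventral wIAHCs *Nrp1* (33.7 CPM over all libraries), *Kdr*, *Flt1*, *Flt4*, *Nrp2* and *Vegfa* lie below that range, and these rates do not apply to them.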

Additional observations from a re-analysis of the deposited data

Results flagged for a closer look

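In the 7 E10 dorsal wIAHCs, 1 library had 8.69 CPM of *Kdr* and 8.69 of *Vegfa*, and 1 had 37.1 of *Flt1* and 37.1 of *Nrp2*, while the other 6 libraries were at 0 for each. Each value stands for 1 transcript. Of 9 such groups examined for a lone library, 4 stood out. Chance marks about 1 in 20 groups of continuous values, a rate that does not hold for a gene seen once, whose single library always stands out.

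The 52 wIAHC libraries under 5000 transcripts entered no comparison. Summed over them, 100355 transcripts held 80 CPM of *Kdr*, 271 CPM of *Nrp1*, 90 CPM of *Plxnd1*, 120 CPM of *Tie1*, 49.9 CPM of *Tek* and 140 CPM of *Vwf*, above the 29.9 CPM that 3 transcripts make. *Nrp1* was the most abundant member there and was found in 10 of the 52 libraries.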

How the results depend on the processing

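The labels give no replicate numbers. In the column names both types of pre-HSC have sorted sets 1 to 3, and same-numbered sets share 0 cell numbers. With these sets as a replicate block, chosen after seeing the data, 1 member was again at least 2-fold lower in type II cells, *Nrp1* (log2 ratio -2.51), and *Plxnd1* (-0.80), *Tie1* (-0.76), *Tek* (-0.85) and *Vwf* (-0.70) kept their direction. In single cells, a pseudocount of 0.5 per cell, which pulls ratios of sparse genes towards 0 by construction, left fewer members at least 2-fold lower: 2 in E10 HE against non-HE, 3 in E10 EHT against HE, 1 in E10 IAHC against EHT, 2 in E10 YS HSPCs against IAHC, 1 in E11 c-kit+CD31+ IAHC against EHT, 0 in type II against type I pre-HSCs, 0 in c-kit+ against c-kit+CD31+ IAHC and 1 in E11 YS HSPCs against c-kit+CD31+ IAHC cells. With 0.1, the count for E10 IAHC against EHT cells was 1. With E11 cells at 3000 transcripts, it was 2 for type II against type I pre-HSCs and 1 for c-kit+ against c-kit+CD31+ IAHC cells. Leaving out the 2 macrophage-marker cells moved none of the 11 counts, and the stricter rule for IAHC cells left all 5 of its counts within 1.5 times (E10 IAHC against EHT cells, 3 in place of 2).

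In wIAHCs, the default filter left 81 genes called between stages in ventral and 26 in dorsal wIAHCs and 0 between sides or in the interaction (21 at E10, 23 at E11 and 26 at an unadjusted p under 0.05, 0 by DESeq2). No filter gave 296, 96, 3 (E10 sides), 1 (E11 sides) and 2 (interaction), and a minimum count of 1, chosen after seeing the data, 286, 143, 7, 4 and 9. With the default filter, DESeq2 size factors gave 50 ventral, 118 dorsal (6 higher and 112 lower at E11) and 70 between E11 sides, and libraries of at least 10000 transcripts 131 ventral and 4 dorsal. Leaving out 1 library gave 230 to 348 ventral and 35 to 127 dorsal calls without a filter. The settings for members were chosen after seeing the data. The 1 ventral member called, *Nrp1*, became 0 with DESeq2, its size factors, at least 10000 transcripts or set 1 only, and the dorsal count became 1 with at least 2000 transcripts, set 2 only or a minimum count of 1. Log2 fold changes changed sign for ventral *Tek* (0.36, set 1), *Vwf* (0.010, without libraries over 10% haemoglobin), *Plxnd1* (-0.048) and *Kdr* (-0.32, both set 2), and for dorsal *Tie1* (-0.22 DESeq2, -0.21 size factors, -0.63 set 2) and *Tek* (-0.13 DESeq2, -0.13 size factors, -0.019 at least 2000, -0.15 at least 10000, -0.18 set 2), none of them called. The cause was not tested.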
